A study of Homo sapiens with 4 samples.

Results

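The proteasome genes described here are the constitutive subunits of the proteasome and the factors that assemble it, in the human liver cancer line HCCLM3. They were chosen by symbol: genes whose name begins with PSMA, PSMB, PSMC, PSMD, PSME, PSMF or PSMG, without the immunoproteasome subunits PSMB8 and PSMB9 and without pseudogenes, antisense or divergent non-coding transcripts. Of 19775 genes with a probe set that names a single gene, 42 were members, and each was read from its brightest probe set. The prefix also brings in genes that are not constitutive: PSMB10 and PSME1 are interferon-inducible, PSMA8 is known from testis, and PSMC3IP and PSME3IP1 are not subunits at all. Of 48 genes listed by role, 6 could not be read by this rule: PSMA6 and PSME2, whose probe sets carry another symbol as well, and PSMB11, PSMC5, PSMD7 and PSMD13, which are not analysed here.

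HCCLM3 cells were sorted magnetically by EpCAM, an epithelial surface protein, and treated for 4 days in 4 groups of 1 Affymetrix U133 Plus 2.0 array each. Of the EpCAM-negative cells, some were transfected with a synthetic mimic of miR-429 at 100 nM and some with a negative-control mimic (NC mimic) at 100 nM. Of the EpCAM-positive cells, some were given antagomir-429, a cholesterol-conjugated antisense RNA against miR-429, at 40 µM and some a control antagomir (NC antagomir) at 40 µM. All samples come from 1 cell line, and mimics went only to EpCAM-negative and antagomirs only to EpCAM-positive cells, so that cell sort and kind of reagent cannot be told apart between the control arrays.

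The proteasome is the main protease for proteins tagged with ubiquitin. Its barrel-shaped 20S core is built of outer alpha rings, which gate the entrance, and inner beta rings, which hold the protease sites. The 19S regulatory particle caps the barrel: its base unfolds substrates with a ring of ATPases, and its lid removes the ubiquitin chains. Dedicated chaperones build both particles, and NFE2L1, a transcription factor that the proteasome itself degrades, raises subunit genes together through antioxidant response elements (ARE) when the protease is inhibited. Liver tumours are known for high PSMD10, also called gankyrin.

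The reagents act through the sequence of the mature microRNA, shown here so that the seed (bases 2 to 8, in capitals) can be seen. In the RefSeq table of build GRCh38.p14 the 22 bases of hsa-miR-429 lie at chr1:1169055-1169076 on the plus strand. Its relative hsa-miR-200b-3p, at chr1:1167160-1167181 on the plus strand, has the same seed.

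hsa-miR-429: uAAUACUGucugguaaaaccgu
hsa-miR-200b-3p: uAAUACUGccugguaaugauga

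Values are signals on the arrays' own scale, which the authors had brought to a trimmed mean of 500.1 on each array, and differences are log2 ratios of single arrays. A gene counted as expressed when its mean log2 signal was at or above 5.73, a signal of 52.9, called the floor. This held for 13180 genes and for 41 of the 42 members, all 41 of which were at or above it on each of the 4 arrays. With 1 array per group there is no replicate check, no test was possible, and precision is limited by how few arrays there are. Median signals ran from 62.7 to 67.1. The 3′ to 5′ signal ratio of actin, a measure of RNA quality, was 2.63 under miR-429 mimic, 3.41 under NC mimic, 3.07 under antagomir-429 and 3.12 under NC antagomir. The same ratio for GAPDH was nearly level, from 0.900 under antagomir-429 to 0.922 under NC antagomir. The part of the actin difference in any result was not tested. The epithelial keratin KRT8 had signals of 28365 to 33449, and 5 of 13 liver tumour markers were expressed. Among the hepatocyte genes, AFP (at most 119) and APOA1 (at most 91.7) were just above the floor, and ALB, TTR and SERPINA1 were under it. Of 7 leukocyte markers 3 were expressed, all at signals of at most 136, and the pan-leukocyte gene PTPRC was under the floor. The expressed 3, CD3E, CD3D and CSF1R, were all at or past 1.5-fold higher with the mimic, with a median log2 ratio of 0.77. All were below 0 with the antagomir, with a median of -0.54, and above 0 between the controls, with a median of 0.69. These signals were near the floor, and CSF1R was under it with antagomir-429, at 41.6. Of the markers under the floor, PTPRC and CD14 were lower with the mimic and LYZ and MS4A1 higher. The part of these markers in any result was not tested. Of 9 endothelial and stromal markers 7 were expressed. COL1A1 among them was bright, with signals of 7162 to 10500. Its ratios were 0.05 with the mimic, -0.46 with the antagomir and 0.55 between the controls. The others expressed had signals of at most 476. The part of these markers in any result was not tested either. EPCAM itself, the gene of the sort, had 3838 under miR-429 mimic and 1106 under NC mimic in the cells sorted as negative, and 913 under antagomir-429 and 1235 under NC antagomir in those sorted as positive. Its signal was thus similar on the NC mimic array and on both antagomir arrays, and the highest on the miR-429 mimic array.

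With the miR-429 mimic, the proteasome genes differed little, and most genes of the 20S core lay slightly lower. Over the 41 expressed members the median log2 ratio to the NC mimic was -0.18, against -0.00 over all expressed genes, with the middle 50% of members between -0.35 and 0.14. After quantile normalization these medians were -0.051 and -0.028, a gap of -0.023 in place of -0.18. No member was at or past 2-fold, where 9.01% of all expressed genes were. At 1.5-fold 0 members were higher, against 14.5% of all genes, and 1 was lower, against 10.9%. In RNA of a whole culture, fewer cells with a transcript and less of it per cell cannot be told apart. Members with a ratio above 0 numbered 16, or 39.0%, against 49.9% of all genes.

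With antagomir-429, the median over members was -0.00 relative to the NC antagomir, against 0.01 over all expressed genes. Again 0 members passed 2-fold, against 7.25% of all genes. At 1.5-fold 1 member was higher, against 9.35%, and 0 were lower, against 8.29%, and 20 members were above 0, against 51% of all genes. Between the controls, the NC antagomir over the NC mimic, the median was -0.07 over members and -0.02 over all genes. In that comparison 0 members passed 2-fold, against 8.32% of all genes, 0 were at or past 1.5-fold higher, against 10.3%, 4 were lower, against 12%, and 15 were above 0, against 47.8%. The 4 were PSMA3, PSMD5, PSMD10 and PSME4. This last comparison shares an array with each of the others.

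**Figure D1:**
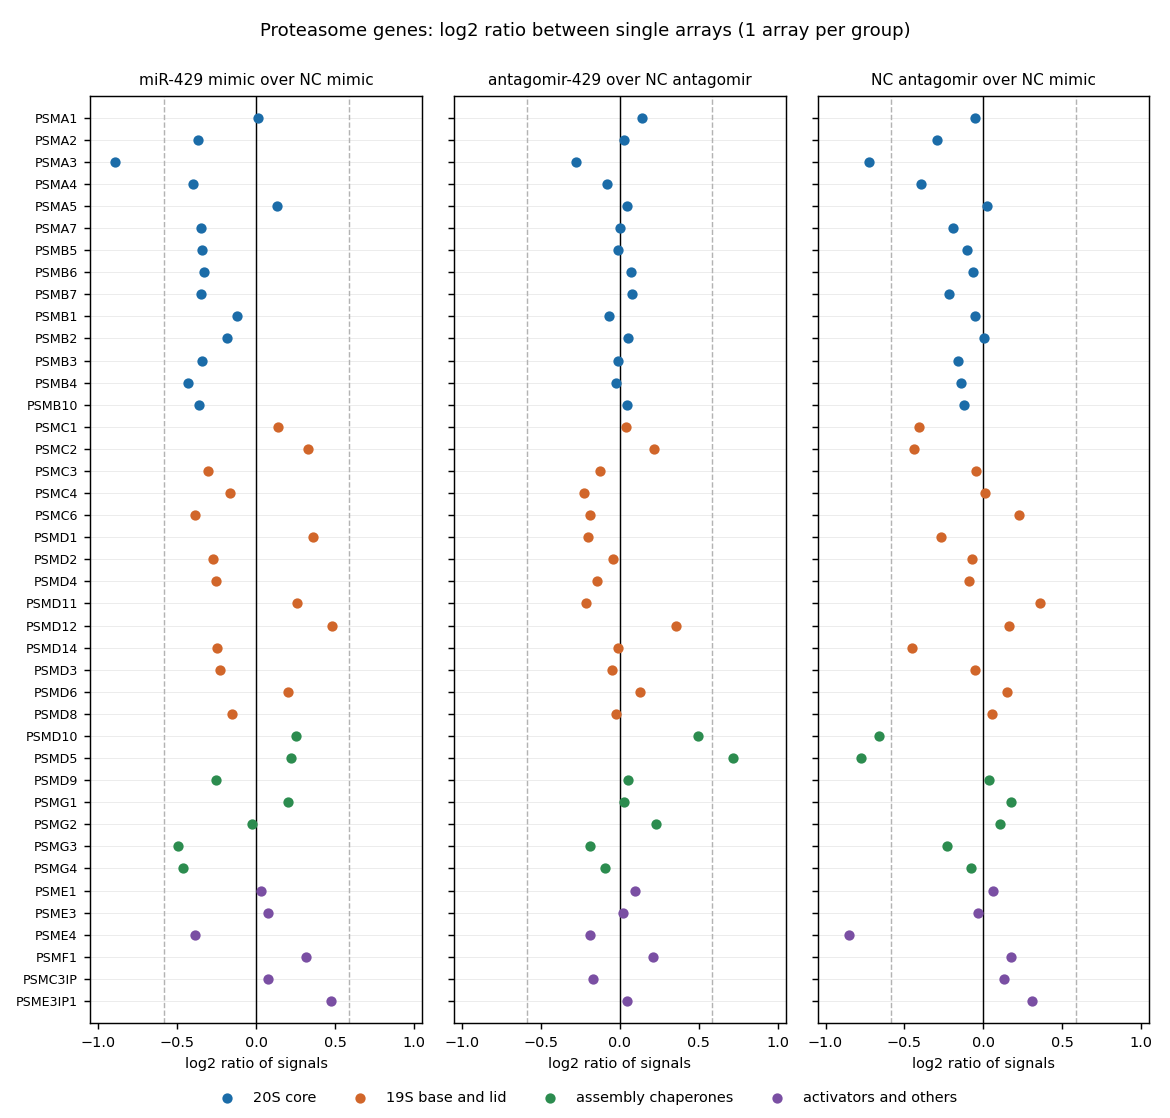
Log2 ratio of signals (x axis) for each of the 41 expressed proteasome genes (rows, coloured by role) in the 3 comparisons, 1 array per group, with dashed lines at 1.5-fold. In the mimic comparison 12 of the 14 points of the 20S core lie below 0, and in the antagomir comparison all points but PSMD5 lie within 1.5-fold.

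Taking all 4 arrays, the range of a member's log2 signal had a median of 0.35, from 0.11 for PSME3 to 1.04 for PSME4, and was under 1 for 40 of 41. Over all expressed genes the median range was 0.60. Spread also went with brightness: the middle 50% of all genes ran from -0.39 to -0.13 with the mimic at a mean log2 signal of 14 or more, where 11 members stood, and from -0.33 to 0.42 under 11, where 6 stood.

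The 3 protease sites of the constitutive core were each lower with the mimic, by nearly the same ratio on the scale of the deposited values. PSMB5, the chymotrypsin-like site and main target of proteasome inhibitor drugs, had a signal of 14936 under miR-429 mimic and 18940.1 under NC mimic, and 17477 under antagomir-429 and 17620.4 under NC antagomir. For PSMB6, the caspase-like site, these signals were 18507 and 23241 on the mimic arrays and 23276 and 22168 on the antagomir arrays, in the same order. PSMB7, the trypsin-like site, had 39093 under miR-429 mimic against 49749.9 under NC mimic, and 45088 under antagomir-429 against 42793 under NC antagomir. Each of the 3 genes was thus lowest on the miR-429 mimic array, and their log2 ratios to the NC mimic were -0.34, -0.33 and -0.35. After quantile normalization the ratios were -0.20, -0.14 and -0.055, and against the NC antagomir array -0.24, -0.26 and -0.13, so that the direction was kept but not the likeness in size. The antagomir ratios were -0.01, 0.07 and 0.08, all near 0.

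Among the structural beta subunits, which carry no protease site, PSMB4 had the lowest mimic ratio and PSMB1 the highest. PSMB4 had a signal of 32197 under miR-429 mimic and 43544 under NC mimic, and 38719 under antagomir-429 and 39433 under NC antagomir, giving log2 ratios of -0.44 and -0.03. PSMB1 had 33275 under miR-429 mimic, 36162 under NC mimic, 33272 under antagomir-429 and 34848 under NC antagomir, with ratios of -0.12 and -0.07, the lowest antagomir ratio of these subunits. The other two, PSMB2 and PSMB3, had mimic ratios of -0.18 and -0.35. PSMB2 also had the highest antagomir ratio of the 4, 0.05, from signals of 30505 under antagomir-429 and 29481 under NC antagomir, beside 25916 under miR-429 mimic and 29421 under NC mimic. PSMB10, which replaces PSMB7 in the interferon-induced immunoproteasome, had 4758 under miR-429 mimic and 6122 under NC mimic, a log2 ratio of -0.36, and 5797 under antagomir-429 against 5616 under NC antagomir, a ratio of 0.05. None of the 8 beta-ring genes was above 0 with the mimic. Under quantile normalization PSMB1 and PSMB2 were above 0, and the median of the structural beta subunits was 0.01.

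PSMA3, an alpha-ring subunit, was the only member at or past 1.5-fold with the mimic. Its signal was 2964 under miR-429 mimic and 5518 under NC mimic, and 2759 under antagomir-429 and 3341 under NC antagomir. The NC mimic array stood apart, above the other 3. The gene was therefore lower with the mimic, at a log2 ratio of -0.90, or 0.537 times the NC mimic, but also lower on the NC antagomir array relative to the NC mimic, at -0.72, and its antagomir ratio was -0.28. Against the NC antagomir array in place of the NC mimic, its mimic ratio was -0.17. A second PSMA3 probe set, at a signal of at most 120.2, gave a mimic ratio of -0.05 and an antagomir ratio of -0.92.

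The other alpha-ring genes lay on both sides of 0 with the mimic. PSMA5 had the highest ratio, 0.13, from 9469 under miR-429 mimic and 8664 under NC mimic, beside 9097 under antagomir-429 and 8820.0 under NC antagomir. PSMA1 had the highest antagomir ratio of the ring, 0.14, with 17062 for antagomir-429 and 15495 for the NC antagomir, beside 16203 for the miR-429 mimic and 16106 for the NC mimic. PSMA2, PSMA4 and PSMA7 had mimic ratios of -0.37, -0.40 and -0.35 and antagomir ratios between -0.08 and 0.02. PSMA8, an alpha subunit known from testis, was the member whose mean lay under the floor, with signals of 56.7 under miR-429 mimic, 3.38 under NC mimic, 39.8 under antagomir-429 and 6.96 under NC antagomir. Around this level ratios have no order, and none is given.

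For the 14 expressed genes of the 20S core together, the median mimic ratio was -0.35, and 9 of the 14 lay within 0.1 of it. It was -0.12 after quantile normalization, with 4 above 0, and -0.13 over the 7 core genes with a second probe set above the floor. For 9 genes the miR-429 mimic array was the lowest of the 4 (64.3%, against 28.6% of all expressed genes), and for 10 the NC mimic array was the highest (71.4%, against 29.6%). The antagomir median was 0.01, with 7 of 14 above 0, and the median between the controls was -0.13, with 2 above 0. With the NC antagomir array as the control, which differs in sort and reagent, the mimic median was -0.16. PSMA1 and PSMA5 were the genes above 0 with the mimic, and PSMA1 was below 0 after median centring.

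**Figure D2:**
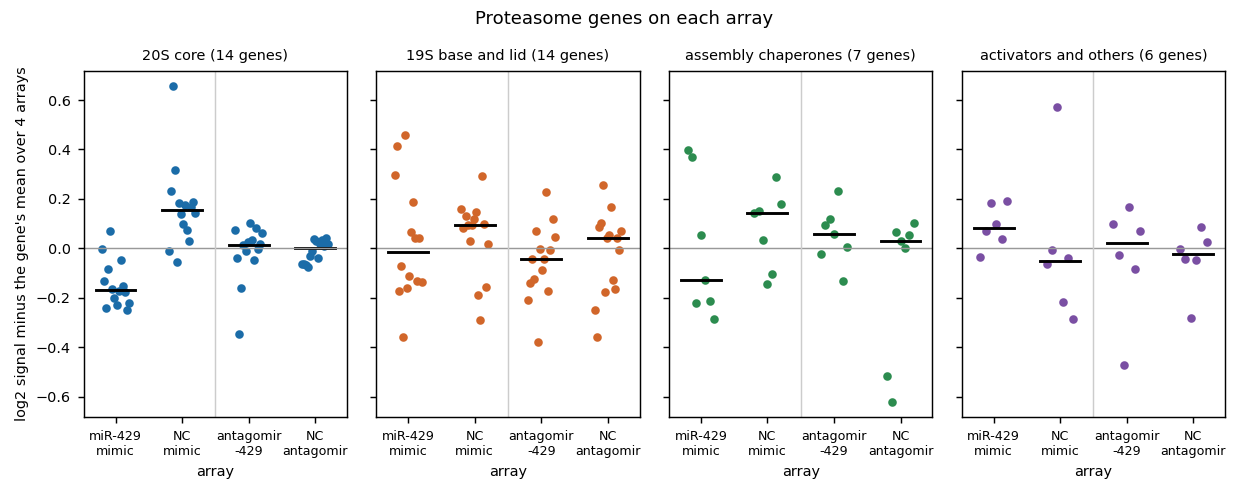
Log2 signal of each expressed proteasome gene on each array (x axis), relative to that gene's mean over the 4 arrays (y axis, log2 units), in 4 panels by role, where points are genes and black bars are medians over genes. In the 20S core panel the points of the miR-429 mimic array lie mostly below 0 and those of the NC mimic array mostly above, and the antagomir arrays lie near 0.

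Bright genes in general were lower with the mimic. At a mean log2 signal of 14 or more stood 11 members, with a median mimic ratio of -0.34 and 0 of 11 above 0. All 483 expressed genes in that range had a median of -0.30, and 12% of them were above 0. Between 13 and 14 the median was -0.09 for 10 members and -0.13 for all 505 genes, between 12 and 13 it was -0.16 for 7 members and -0.06 for 817 genes, and between 11 and 12 it was 0.20 for 7 members and -0.01 for 1193 genes. The brightest genes were thus lower on the miR-429 mimic array relative to the NC mimic array as a class, proteasome genes and others alike. Of the 20S core, 9 genes stood at 14 or more, with a median of -0.35, close to that of the class. The 5 core genes under 14 had a median of -0.36, with PSMA3, PSMB10 and PSMA4 below the medians of all genes in their ranges and PSMA1 and PSMA5 above them. Gene length was read as well: among expressed genes of log2 signal 13 or more whose span was under 15.3 kb, the mimic median was -0.33 over 13 members and -0.31 over 582 genes. For longer genes of that brightness it was -0.15 over 8 members and -0.08 over 406 genes. At log2 signals of 11 to 13 the short members did not lie with their class: their median was -0.04, with 3 of 6 above 0, against -0.21 and 30.7% above 0 over 782 short genes. The brightest range showed no such shift with the antagomir, where the medians were -0.01 for members and 0.00 for all genes. Between the controls they were -0.10 and -0.13, with 22.6% of all genes above 0. Most genes of this range were thus higher on the NC mimic array than on the NC antagomir array as well.

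**Figure D3:**
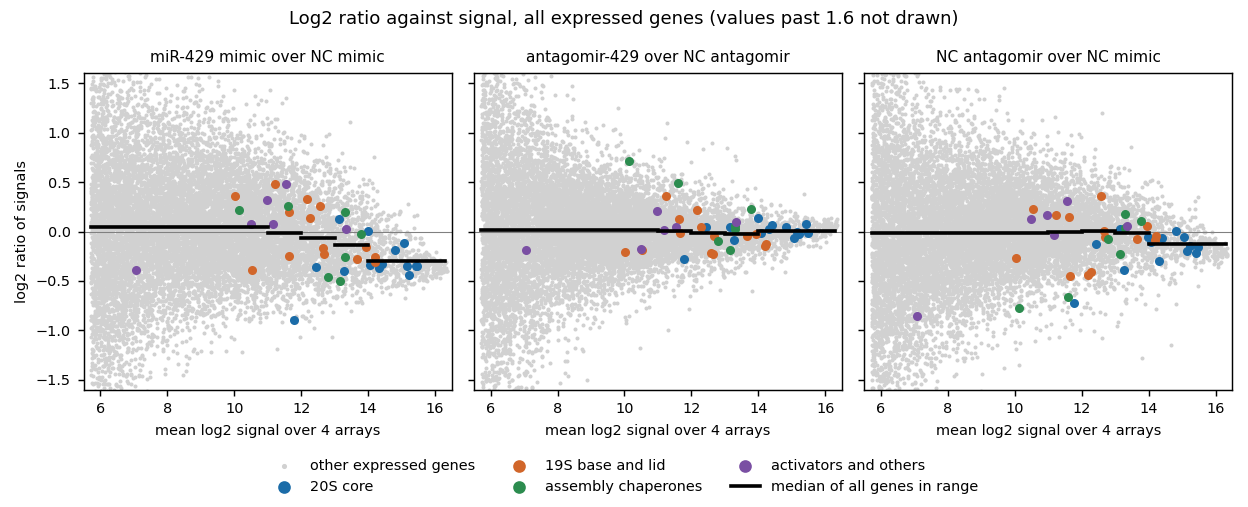
Log2 ratio (y axis) against mean log2 signal over 4 arrays (x axis) for all expressed genes (grey) and proteasome genes (coloured by role) in the 3 comparisons, with black lines at the medians of all genes in 5 signal ranges. At log2 signals of 14 or more the line lies at -0.30 with the mimic and at 0.00 with the antagomir, and the 20S core points in that range lie near it.

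The 19S base and lid did not share a direction. Over their 14 genes the mimic median was -0.16 with 6 above 0, the antagomir median -0.05 with 4 above 0, and the median between the controls -0.05 with 6 above 0. Only 5 of the 14 mimic ratios lay within 0.1 of their median. Among the ATPases of the base, PSMC2 had the highest and PSMC6 the lowest mimic ratio. PSMC2 had 6162 under miR-429 mimic and 4904 under NC mimic, a log2 ratio of 0.33, and 4195 under antagomir-429 against 3614 under NC antagomir, a ratio of 0.21. PSMC6 had 1154 under miR-429 mimic, 1513 under NC mimic, 1555 under antagomir-429 and 1769 under NC antagomir, with ratios of -0.39 and -0.19. PSMC6 thus lay below 0 in both comparisons. Of the other PSMC2 probe sets, both at signals of at most 242, one gave -0.45 with the mimic and 1.27 with the antagomir. The other gave -0.57 and 1.08, so that PSMC2 was above 0 on all its probe sets only with the antagomir. All of these probe sets were lowest on the NC antagomir array, with ratios between the controls of -0.44, -1.39 and -1.48. The antagomir ratios of PSMC2 thus share that low array. The ATPase with the lowest antagomir ratio, PSMC4, had -0.23, from signals of 5916 under antagomir-429 and 6922 under NC antagomir, beside 6141 under miR-429 mimic and 6884 under NC mimic. PSMC1 and PSMC3 had mimic ratios of 0.14 and -0.30 and antagomir ratios of 0.04 and -0.13.

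Of the non-ATPase subunits of the base, PSMD4, which binds ubiquitin chains, had 17317 under miR-429 mimic and 20711 under NC mimic, and 17608 under antagomir-429 and 19458 under NC antagomir. Its log2 ratios were -0.26 and -0.14. The scaffold subunits PSMD1 and PSMD2 went opposite ways with the mimic. PSMD1 had 1435 under miR-429 mimic against 1117 under NC mimic, a ratio of 0.36, and 804 under antagomir-429 against 926 under NC antagomir, a ratio of -0.20. Its second probe set gave 0.56 with the mimic and 0.22 with the antagomir, so that only the mimic direction was shared. PSMD2 had 11557 and 13997 on the mimic arrays, a ratio of -0.28, and 12887 and 13304 on the antagomir arrays, a ratio of -0.05, with the miR-429 reagent first in each pair.

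In the lid, PSMD14, the deubiquitinase that cuts the ubiquitin chain off the substrate, had 3296 under miR-429 mimic and 3920.2 under NC mimic, and 2838 under antagomir-429 and 2860.3 under NC antagomir. It had the lowest mimic ratio of the lid, -0.25, an antagomir ratio of -0.01, and a ratio of -0.45 between the controls. PSMD12, a scaffold subunit of the lid, had the highest in both comparisons: 2728 under miR-429 mimic against 1958 under NC mimic, a ratio of 0.48, and 2809 under antagomir-429 against 2195 under NC antagomir, a ratio of 0.36. Its dimmer second probe set gave -0.14 with the mimic and 0.31 with the antagomir, so that only the antagomir direction was shared. PSMD11, also a scaffold subunit, had the lowest antagomir ratio, -0.21, from 5908 under antagomir-429 and 6850.5 under NC antagomir, beside 6372 under miR-429 mimic and 5339.7 under NC mimic. PSMD3, PSMD6 and PSMD8 had mimic ratios of -0.23, 0.20 and -0.15 and antagomir ratios of -0.05, 0.13 and -0.03. The lid median was 0.02 with the mimic, and -0.09 after median centring.

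The chaperones that build the 19S base held the members with the highest antagomir ratios. PSMD5, which holds the ATPase pair around PSMC2 during assembly, had 1197 under antagomir-429 and 729 under NC antagomir, and 1449 under miR-429 mimic and 1246 under NC mimic. The NC antagomir array was the low one, and the other 3 lay close together. The antagomir log2 ratio was 0.71, or 1.64-fold, the ratio between the controls -0.77, and the mimic ratio 0.22. PSMD10, or gankyrin, was also lowest on the NC antagomir array, with 3047 under antagomir-429 and 2165 under NC antagomir, and 4079.9 under miR-429 mimic and 3421 under NC mimic. Its antagomir ratio was 0.49, its ratio between the controls -0.66, and its mimic ratio 0.25, and a second probe set gave 0.30, -0.64 and 0.14. The other base chaperone, PSMD9, had 8689.9 under miR-429 mimic, 10369 under NC mimic, 11019 under antagomir-429 and 10626 under NC antagomir. Its ratios were -0.25 with the mimic and 0.05 with the antagomir. For PSMD5 and PSMD10 the high antagomir ratio and the low ratio between the controls share the NC antagomir array. PSMD5 rests on this single low array. PSMD10 was also lower on the antagomir-429 array than on both mimic arrays, on both its probe sets.

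Among the chaperones that build the 20S core, the PSMG3 and PSMG4 pair was lower with the mimic than the PSMG1 and PSMG2 pair. PSMG3 had 7891 under miR-429 mimic and 11148 under NC mimic, the lowest mimic ratio of this group at -0.50, and 8333 under antagomir-429 and 9492 under NC antagomir, the lowest antagomir ratio at -0.19. PSMG4 had mimic and antagomir ratios of -0.46 and -0.10. PSMG1 had the highest mimic ratio, 0.20, from 10514 under miR-429 mimic and 9146 under NC mimic, beside 10533 under antagomir-429 and 10342 under NC antagomir. PSMG2 had the highest antagomir ratio, 0.23, from 16446 under antagomir-429 and 14035 under NC antagomir, beside 12826 under miR-429 mimic and 13048 under NC mimic. POMP, which brings the half-built core to completion and is not a member by its symbol, had 16822 under miR-429 mimic and 21955 under NC mimic, and 18074 under antagomir-429 and 18635 under NC antagomir. Its ratios of -0.38 and -0.04 were close to those of the core genes.

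Of the alternative caps and the inhibitor, PSME4, which makes a cap for the 20S barrel, was dim on every array. It had 153 under miR-429 mimic and 200.2 under NC mimic, and 97.0 under antagomir-429 and 111 under NC antagomir. Its ratios were -0.39 with the mimic, -0.19 with the antagomir and -0.85 between the controls, and its second probe set gave 0.17, -0.22 and -0.39. PSMF1, an inhibitor of the core in vitro, had the highest ratios of this group in both comparisons, 0.32 and 0.21, from 2138 under miR-429 mimic and 1719 under NC mimic, and 2242 under antagomir-429 and 1936 under NC antagomir. Its 4 probe sets spread from -1.89 to 1.12 in the mimic comparison, so that no direction is given for it. PSME1, part of the interferon-induced cap, and PSME3, its nuclear relative, had mimic ratios of 0.03 and 0.08. Both were below 0 after median centring.

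The members by prefix only had ratios of similar size. PSMC3IP, a meiotic recombination factor, had 1485 under miR-429 mimic and 1407 under NC mimic, and 1366 under antagomir-429 and 1539 under NC antagomir, for ratios of 0.08 and -0.17. PSME3IP1, which binds PSME3, had 3425 under miR-429 mimic and 2464 under NC mimic, a ratio of 0.48, and 3147 under antagomir-429 and 3053 under NC antagomir, a ratio of 0.04. The NC mimic array was the low one for PSME3IP1, with a ratio of 0.31 between the controls. Against the NC antagomir array its mimic ratio was 0.17. Without PSMC3IP and PSME3IP1 the mimic median over the remaining 39 genes was -0.23.

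Set side by side, the mimic and antagomir comparisons share no array. A gene repressed by miR-429 would be below 0 with the mimic and above 0 with the antagomir. So stood 7 of 41 members, or 17.1%, against 23.1% of all expressed genes. In the 20S core 5 of 14 genes stood so (35.7%), and 7 (50%) were below 0 in both. The 5 core genes had antagomir ratios of 0.02 to 0.08. Among them, PSMA2 and PSMB2 gave -0.001 and -0.09 with the antagomir on their second-brightest probe sets, and a dimmer PSMB2 probe set gave 0.30. Of the 5 core genes, 4 had a mean log2 signal of 14 or more, a range lower with the mimic as a class. Both ratios were below 0 for 18 members (43.9%, against 27% of all genes) and above 0 for 13 (31.7%, against 27.9%), and 3 were higher with the mimic and lower with the antagomir (7.32%, against 22%). Nearly all these ratios are small, and the signs of 4 members with the mimic and 3 with the antagomir turned under median centring.

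Probe sets of the same gene give a measure of how far single ratios can be read. The members have 85 probe sets, 72 of them at or above the floor, and 20 expressed members have at least 2 such probe sets. The range of log2 ratios within a gene had a median of 0.21 with the mimic, 0.22 with the antagomir and 0.20 between the controls. In 6 of the 20 genes the probe sets gave both signs with the mimic, and in 7 with the antagomir. PSMB5, PSMB6, PSMB7 and PSMD5 have a single probe set above the floor.

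**Figure D4:**
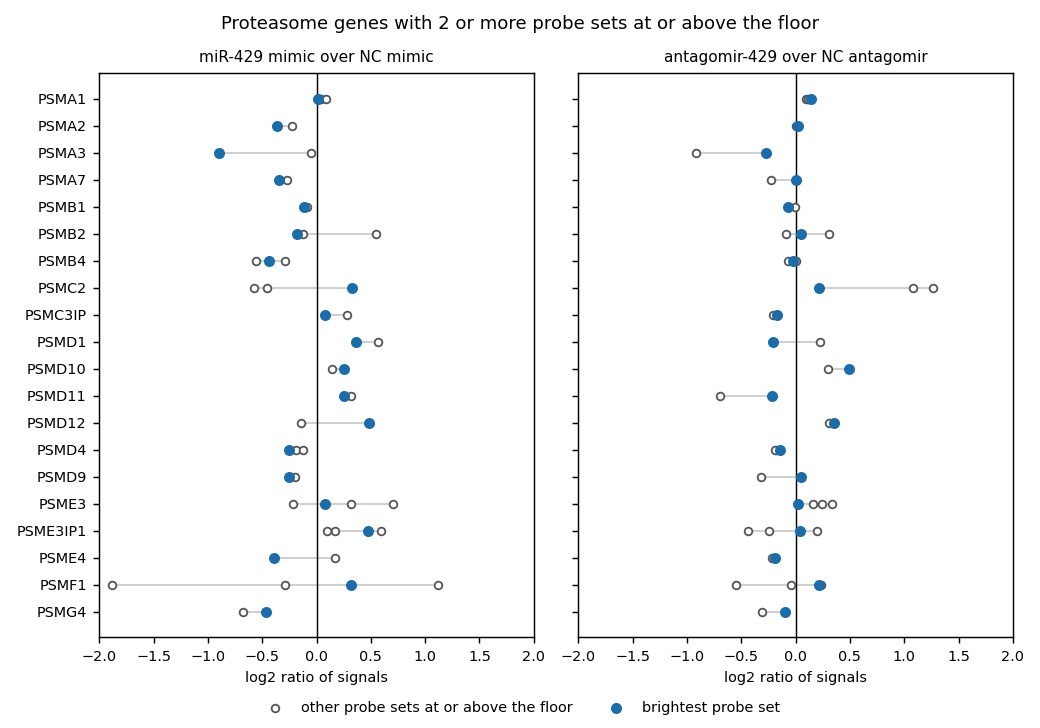
Log2 ratio (x axis) of every probe set at or above the floor for the 20 proteasome genes with 2 or more such probe sets (rows), with the mimic and with the antagomir; filled points are the brightest probe sets and open points the others. Spread is widest for PSMF1 with the mimic, from -1.89 to 1.12, and for PSMC2 with the antagomir, from 0.21 to 1.27.

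The transcription factor behind coordinate proteasome expression differed little between the arrays. NFE2L1 had 3654 under miR-429 mimic and 3806 under NC mimic, and 3322 under antagomir-429 and 3697 under NC antagomir, for log2 ratios of -0.06 and -0.15. Its activity is set by processing of the protein, which arrays do not see. Over 9 expressed genes of its pathway the mimic median was -0.06 and the antagomir median -0.01.

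Promoters were read for 36 of the 42 members in the RefSeq table of GRCh38.p14, 250 bases before to 50 after the start site, and searched on both strands. The ARE motif TGACNNNGC was in 11 of 36 (30.6%), against 13.6% of all 27305 windows. None of its 13 matches overlapped a CCAAT box or a GC box. The CCAAT box, spelled CCAAT, was in 17 (47.2%, against 35.7%), the GC box GGGCGG in 23 (63.9%, against 44.6%), and the heat shock element GAANNTTC in 1 (2.78%, against 6.87%). Shown are 3 matches, with the motif in capitals and 20 bases on each side, from a core subunit and from the lid and chaperone genes with the highest antagomir ratios of their groups. They lie 104, 165 and 134 bases before the start sites, at chr17:38752617-38752665 on the plus strand for PSMB3, at chr17:67366714-67366762 on the minus strand for PSMD12, and at chr9:120843028-120843076 on the minus strand for PSMD5.

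PSMB3: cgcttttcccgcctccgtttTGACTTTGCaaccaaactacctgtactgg
PSMD12: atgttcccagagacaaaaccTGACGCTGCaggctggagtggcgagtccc
PSMD5: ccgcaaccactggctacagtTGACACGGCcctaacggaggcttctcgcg

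These 3 genes, with a motif match in common, differed in their mimic ratios, -0.35 for PSMB3, 0.48 for PSMD12 and 0.22 for PSMD5. The 11 members with the motif had a mimic median of -0.02 and an antagomir median of 0.03, and the 24 expressed members whose window lacks it had -0.17 and 0.00. A match is a description of letters, not a bound site.

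The immunoproteasome subunits, left out of the members, had mimic ratios close to those of the constitutive core. The antagomir ratios of PSMB8 and PSMB9 lay below the core median of 0.01. PSMB8, which replaces PSMB5, had 10679.5 under miR-429 mimic and 14111 under NC mimic, and 12529.9 under antagomir-429 and 13278 under NC antagomir, for ratios of -0.40 and -0.08. PSMB9, which replaces PSMB6, had 9153 under miR-429 mimic and 11767 under NC mimic, and 9912 under antagomir-429 and 11189 under NC antagomir, for ratios of -0.36 and -0.17. Over 10 expressed genes of the immunoproteasome and antigen presentation, PSMB10 among them, the mimic median was -0.38 with 2 above 0, and the antagomir median -0.03. Of these genes 3 had a mean log2 signal of 14 or more, with a median of -0.43, and the other 7, under 14, had a median of -0.36 with 2 above 0.

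Other proteasome factors without the PSM prefix, among them ubiquitin receptors, shuttles, ligases, deubiquitinases and POMP, had a median on the other side of 0 with the mimic. Over 17 such expressed genes the mimic median was 0.33, with 12 above 0, or 70.6%, against 49.9% of all genes. Signal and gene length were not taken into account for this list. At or past 1.5-fold higher stood 4, or 23.5%, against 14.5% of all genes. The 4, named after their values were seen, were ECPAS, whose yeast counterpart tethers the core to the 19S particle, the deubiquitinase USP14, and the shuttle proteins UBQLN1 and UBQLN2. ECPAS had 854 under miR-429 mimic and 509 under NC mimic, a ratio of 0.74, and 676 under antagomir-429 and 590.4 under NC antagomir, a ratio of 0.19. USP14 had 4285 under miR-429 mimic and 2808 under NC mimic, a ratio of 0.61, and 3643 under antagomir-429 and 3242 under NC antagomir, a ratio of 0.17. The ratios of UBQLN1 and UBQLN2 were 0.65 and 0.61 with the mimic, and 0.31 and 0.07 with the antagomir. On the lower side stood the shuttle protein UBQLN4 at -0.53, the small 19S subunit SEM1 at -0.37 and the ubiquitin receptor ADRM1 at -0.29. UBQLN2 was also higher between the controls, at 0.76, so that the NC mimic array was its low one. The antagomir median over the 17 genes was 0.03. With the NC antagomir array as control, their mimic median was 0.12.

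Other large complexes were read for comparison, among them the COP9 signalosome and eIF3, whose architecture is related to that of the lid. With the mimic, the medians were -0.30 over 10 genes of the COP9 signalosome, -0.03 over 12 of eIF3 and 0.15 over 7 of the CCT chaperonin. With the antagomir they were 0.05, 0.05 and 0.06. The COP9 genes went both ways with the mimic, from -1.09 to 0.58 with 4 of 10 above 0, and those of eIF3 ran from -1.06 to 0.56 with 6 of 12 above 0.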

How the data were processed

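Total RNA of 4 samples was hybridised to 1 Affymetrix array each, as biotin-labelled cRNA made from the 3′ end of transcripts, per the labels' protocols. The deposited values are log2 signals, made by the authors with MAS5 per the submitters' processing notes, whose version is not given in the sources used here. On the linear scale all 4 arrays had the same mean after trimming 2% at each end, so the authors had scaled them, and no other scaling was applied. Each array holds 54675 probe sets, 62 of them controls, which were left out. Genes were named from the platform annotation, and 41091 probe sets named 1 gene.

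Each gene was represented by its brightest probe set by mean log2 signal, and counted as expressed at or above the median of all probe sets. The fold thresholds were 2 and 1.5. With 1 array per group no p-value or error was computed. The scripts used Python 3.11.15 with numpy 2.4.6, pandas 2.3.3 and scipy 1.17.1, and the counting was tested on simulated data. The alternatives tried were centring on the median, quantile normalization, an added offset of 13.1 signal units, other floors, other probe sets and the other control array.

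The members and all gene lists were chosen with earlier results of these data known. Named throughout are the protease sites, PSMB10, PSMD14, PSMD10, PSMD4, PSMC3IP, NFE2L1, POMP, PSMB8 and PSMB9, each expressed member at or past 1.5-fold, and in each role group the highest and lowest with the mimic and with the antagomir. Other members are given by their ratios only.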

Additional observations from a re-analysis of the deposited data

How the results depend on the processing

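Each group has 1 array, and ratios near the floor or within the spread of probe sets cannot be read as differences. No paired analysis was possible because each group has a single array. For the mimic, the members' median of -0.18 was -0.29 after median centring, which moved the median of all genes to -0.11, and -0.051 after quantile normalization. The 20S core's -0.35 was -0.46 and -0.12, and was -0.13 over 7 second-brightest probe sets and -0.16 against the NC antagomir array. Core genes above 0 numbered 1 after median centring, 4 after quantile normalization, 1 by the median of a gene's probe sets and 1 by second-brightest probe sets. Members at or past 2-fold with the mimic numbered 1 after median centring, 1 with no floor and 1 by the median of probe sets. Members 1.5-fold higher numbered 1 with no floor, 1 by the median of probe sets and 4 against the NC antagomir array. Members 1.5-fold lower numbered 2 after median centring and 2 by the median of probe sets. Among the 20 second-brightest probe sets 8 were above 0.

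For the antagomir, the median of -0.0015 was 0.0079 with the stricter floor and 0.0079 with no floor, and so changed sign at a size near 0. With no floor, 1 member passed 2-fold and 2 were 1.5-fold higher. By the median of probe sets 2 passed 2-fold, 3 were 1.5-fold higher and 1 lower. By second-brightest probe sets 1 passed 2-fold, 2 were 1.5-fold lower and 8 of 20 were above 0. Between the controls, with no floor 1 passed 2-fold and 1 was 1.5-fold higher. By the median of probe sets 2 passed 2-fold and 3 were 1.5-fold higher, and by second-brightest probe sets 1 passed 2-fold and 2 were 1.5-fold lower. The member added with no floor is PSMA8. Of 125 values under the alternatives, 90 stayed on the same side and within the same size, the 20S values among them having been added after the data were seen. The causes were not tested.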

Other observations

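Probe sets outside the rule gave further proteasome readings. One shared by PSMA6, an alpha-ring subunit, and PRORP had signals of 17591 under miR-429 mimic and 18528 under NC mimic, and 18488 under antagomir-429 and 19217 under NC antagomir, for log2 ratios of -0.07 and -0.06. A second probe set of the same pair had 997 under miR-429 mimic and 825 under NC mimic, and 1178 under antagomir-429 and 895 under NC antagomir, for ratios of 0.27 and 0.40, opposite in sign to the first. One shared by PSME2, the partner of PSME1 in the interferon-induced cap, and MIR7703 had 11626 under miR-429 mimic and 10569 under NC mimic, a ratio of 0.14, and 10601 under antagomir-429 and 12665 under NC antagomir, a ratio of -0.26. The brighter probe set of the antisense gene PSMB8-AS1 had 926 under miR-429 mimic and 1047 under NC mimic, and 795 under antagomir-429 and 1008 under NC antagomir, for ratios of -0.18 and -0.34. Of the probe sets shared by PSMA2 and C7orf25, one gave -0.20 with the mimic and -0.45 with the antagomir, and the other 0.16 and -0.67. Both were dim, and both lay below the antagomir ratio of 0.02 of the brightest PSMA2 probe set.

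Genes of the ubiquitin supply and of related complexes, named after their values were seen, gave the following. UBB, a polyubiquitin gene, had 63022 under miR-429 mimic and 83351 under NC mimic, a ratio of -0.40. UBA1, the main ubiquitin-activating enzyme, had 6394 under miR-429 mimic and 7867 under NC mimic, a ratio of -0.30. Their antagomir ratios were 0.07 and -0.09. UBB had a mean log2 signal of 16.1, in the brightest range, where the mimic median of all genes was -0.30. For UBA1, at 12.8, the median of its range was -0.06. The COP9 subunit COPS2 had 902 under miR-429 mimic and 1917 under NC mimic, and 731 under antagomir-429 and 882 under NC antagomir. It was lower with the mimic at a ratio of -1.09 and between the controls at -1.12, with the NC mimic array high, as for PSMA3. EIF3E, an eIF3 subunit, had 4906 under miR-429 mimic and 10262 under NC mimic, a ratio of -1.06, and 8627 under antagomir-429 and 8024 under NC antagomir, a ratio of 0.10.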
